A study of Bos taurus with 88 samples.

Results

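In whole blood of newborn calves, 100 genes were selected on how closely their RNA level followed that of OAS2. They were chosen by taking, for every gene with a mean CPM of at least 5 over all 88 samples (CPM are gene counts scaled to a common library total), the Pearson correlation r of its log2(CPM + 1) with that of OAS2, and keeping the 100 highest of the 9993 genes ranked. The deposited counts list 24616 genes, of which 10002 reached the level needed. The selection used the measured values of all samples, so the levels of these members by age, breed and calf describe what was selected and are not evidence for it. The counts name genes only by Ensembl identifier. OAS2 stands for ENSBTAG00000014628 because the set was defined under that name, and no table used here pairs Ensembl cattle identifiers with symbols, so this name was not checked and the members are given by identifier.

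OAS2 encodes an oligoadenylate synthetase, an enzyme that senses double-stranded RNA and makes short 2′-5′ linked adenylates that switch on RNase L, which cuts viral and cellular RNA. It belongs to the interferon-stimulated genes, a large group that blood and other cells switch on together when interferon binds its receptor and signals through JAK kinases and STAT proteins. Which of the members belong to that group could not be looked up by identifier, and no role is given for any of them for that reason.

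The 22 calves were sampled at 0, 48, 72 and 168 h after birth, and each sample gave 1 library. The 8 dairy calves (H) were of holstein friesian breed and were given colostrum artificially at 5% of body weight. The 7 CL calves, charolais limousin in the labels, and the 7 LF calves, limousin friesian in the labels, were beef calves that suckled their dams. The study gives these as the breed types of the dams, so for beef calves breed stands here for that of the dam. The samples at 0 h preceded the first feed. Dairy and beef calves differed in farm and in feeding as well as in breed, so these cannot be told apart, and the beef calves were sired by Aberdeen Angus or Charolais bulls. The tissue named in the labels is whole blood, a mixture of cell types. In such bulk samples more RNA per cell and more cells of a type cannot be told apart.

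Gene counts per library ran from 10023822 to 39304404, with a median of 22595526.5. The 5 largest genes of each library were left out of its total before CPM were taken, because in 3 of the 4 libraries of calf H6 they held 36.3% to 48.4% of the counts, against at most 26.4% in libraries of other calves. None of the members was ever among those 5. OAS2 correlated with library depth at r = 0.14 over 88 samples and with the share of multimapping reads at r = -0.10. There are 9 libraries with an R in their RNA number, whose meaning the labels do not give. The labels give every calf the same tag number at all 4 ages, but the RNA numbers of H1 and H3 at 168 h lie outside the sequence of that calf's other numbers. Over genes, the deviations of both libraries from their group mean correlated most with the birth library of the same calf (r = 0.36 and 0.33, against at most 0.25 and 0.14 for other H calves). The 168 h library of H5 correlated in this way at 0.07 with its own 72 h library and at 0.22 with that of H2. That of H2 correlated at 0.09 with its own 72 h library and at 0.155 with that of H6. With the birth libraries, H5 and H2 correlated most with their own calf (0.40 and 0.24). The weakest member value rested on 4 counts, above the 3 counts (0.0827 to 0.367 CPM, depending on the library) taken as the limit of detection.

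OAS2 itself was low at birth in every breed and reached its highest values later, with a wide spread between calves. In H calves the lowest, median and highest OAS2 levels were 2.84, 5.44 and 9.78 CPM at 0 h and 6.25, 42.04 and 680 CPM at 48 h. At 72 h they were 4.55, 257 and 528 CPM, and at 168 h 101.4, 269 and 409 CPM. The H calves thus overlapped with their birth values at 48 and 72 h, and at 168 h every H calf was above all H birth values. In CL calves OAS2 was at 1.70, 3.54 and 5.70 CPM at 0 h and at 3.07, 15.1 and 56.2 CPM at 48 h. It was at 16.2, 24.9 and 432 CPM at 72 h and at 4.29, 57.3 and 489 CPM at 168 h. Only at 72 h were all CL calves above the CL birth range, and at 168 h calf CL3 was within it.

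In LF calves OAS2 was at 1.43, 2.19 and 17.1 CPM at 0 h and at 4.00, 42.9 and 794 CPM at 48 h. At 72 h the LF levels were 7.14, 73.7 and 253 CPM, and at 168 h they were 33.4, 141 and 328 CPM. The LF ranges overlapped with birth at 48 and 72 h and no longer at 168 h. Ordered by median, the breeds stood as H, CL and LF at 0 h, as LF, H and CL at 48 h, and as H, LF and CL at 72 and 168 h. Neighbours in each of these orders overlapped. The plot of OAS2 and of the members' median by calf shows both the rise after birth and how far single calves departed from their breed.

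**Figure D1:**
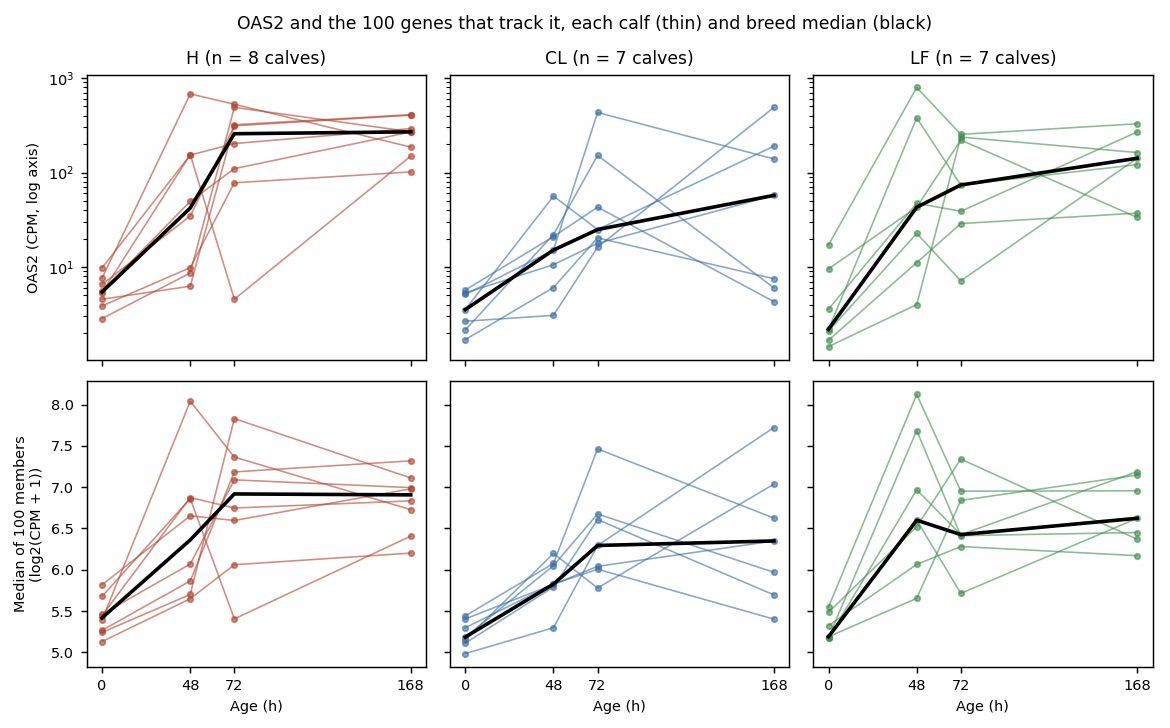
OAS2 in CPM on a log axis (top) and the median log2(CPM + 1) of the 100 members (bottom) against age in h, for H (n = 8), CL (n = 7) and LF (n = 7) calves, with each calf as a thin line with points and the breed median in black. Calf H5 was at 4.55 CPM of OAS2 at 72 h, between 155 CPM at 48 h and 149 CPM at 168 h, and the calves reached their highest values at different ages.

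The 100 members had r with OAS2 from 0.72 to 0.95 over the 88 samples, with a median of 0.82, where the median of all ranked genes was 0.02. ENSBTAG00000030921 followed OAS2 most closely (r = 0.95), ahead of ENSBTAG00000030932 and ENSBTAG00000034349 (both r = 0.95). At the edge, the last member ENSBTAG00000007970 had r = 0.7165 and the first gene outside, ENSBTAG00000047367, had r = 0.7158, so no gap in r separates the members from the genes next to them. Of 12 identifiers that the definition of the set left out, with no reason given, 8 reached the level filter and 6 had an r above that of the last member. The members spanned mean levels from 5.22 to 941 CPM, with a median of 91.4 CPM. All 100 had a positive r within each breed, taken over 32 H, 28 CL or 28 LF samples that the selection had also used.

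Members followed OAS2 with swings of different size, as the heatmap of all members over the 88 libraries and the plot of slopes show. The slope of a member's log2(CPM + 1) on that of OAS2 ran from 0.09 to 0.74 with a median of 0.26. The steepest was ENSBTAG00000037527 and the flattest ENSBTAG00000025762. The range of single members over the 88 samples was 1.40 to 8.17 log2 units, with a median of 3.71. Mean level did not order the slopes, since steep and flat members occurred both near 10 CPM and above 100 CPM in the plot.

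**Figure D2:**
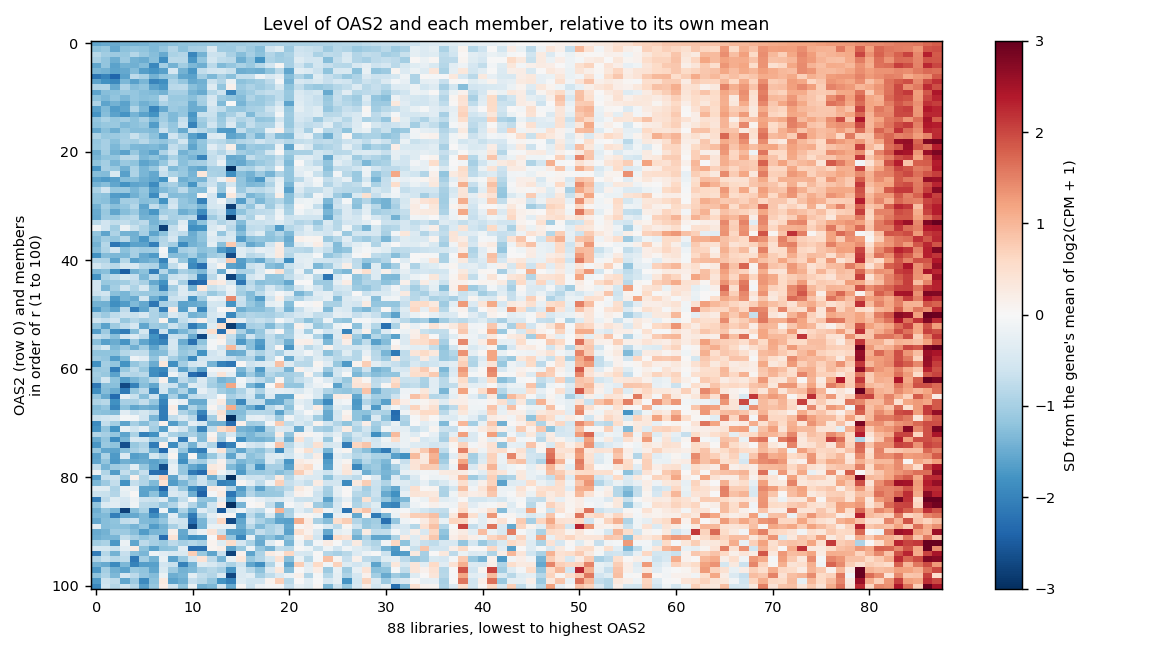
Level of OAS2 (row 0) and of the 100 members (rows 1 to 100 in order of r) in the 88 libraries, ordered from lowest to highest OAS2. The colour gives the SD from each gene's own mean of log2(CPM + 1). Low values lie on the left and high values on the right, and the lower rows are more mixed than the upper ones. The order of rows and columns was set by OAS2.

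ENSBTAG00000030921, the closest follower, was a rare transcript at birth. Its lowest, median and highest levels at 0 h were 0.685, 1.15 and 2.84 CPM in H, 0.166, 0.589 and 0.859 CPM in CL, and 0.574, 0.746 and 1.13 CPM in LF. At 48 h they were 0.847, 4.66 and 37.6 CPM in H, 1.08, 1.82 and 4.18 CPM in CL, and 2.59, 5.58 and 39.8 CPM in LF. The beef groups were then wholly above their birth ranges, and the H group overlapped with its own. At 168 h the median was 16.1 CPM in H, 6.12 CPM in CL and 9.57 CPM in LF, and the lowest calf of each breed was above the highest birth value of that breed. Its fitted log2 fold change from 0 to 48 h was 2.54 (SE 0.71) in H, 1.76 (SE 0.35) in CL and 4.31 (SE 0.70) in LF.

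ENSBTAG00000037527 had the steepest slope on OAS2, and calves differed widely in it already at birth. In H calves it ran over 20.5, 39.6 and 72.2 CPM (lowest, median and highest) at 0 h and over 50.3, 177.98 and 656 CPM at 48 h. In CL calves the birth values were 3.32, 17.8 and 84.9 CPM and the 48 h values 20.6, 85.1 and 152.5 CPM. In LF calves they were 4.71, 11.2 and 97.9 CPM at birth and 16.3, 91.1 and 1239 CPM at 48 h. The 48 h range overlapped with birth in all 3 breeds. At 168 h only the H calves, at 180 to 677 CPM, were all above their birth range. The highest LF birth value came from LF1, and all other LF birth values lay below every LF value at 168 h. That LF1 library had the fewest gene counts of all (10023822), with 73.9% of its reads assigned to no gene. Among 22 birth samples its r with OAS2 was 0.76, against a median of 0.33 for the members. The change from 0 to 48 h was called in H (2.45, SE 0.49) and LF (3.76, SE 1.03) on the log2 scale. It was not called in CL (1.27, SE 0.64), where it was called with calf as a block (1.45).

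ENSBTAG00000031214 and ENSBTAG00000009206 were among the members with the largest fitted rises at 48 h in H and LF calves. ENSBTAG00000031214 lay at 0.404, 0.590 and 1.44 CPM in LF calves at birth and at 2.65, 17.4 and 93.5 CPM at 48 h, with no overlap. In CL calves the 48 h values of ENSBTAG00000031214 were 0.884, 2.55 and 5.31 CPM, overlapping with their birth range of 0.697 to 1.41 CPM. ENSBTAG00000009206 lay at 0.440, 0.779 and 3.09 CPM in LF at birth and at 4.00, 26.2 and 140 CPM at 48 h, again with no overlap. In H calves ENSBTAG00000009206 went from 0.874, 2.04 and 4.03 CPM to 3.64, 14.7 and 156 CPM, with overlap.

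Abundant members followed OAS2 as well. ENSBTAG00000022489, with a mean of 692 CPM and r = 0.94, was at 126.2 to 254 CPM in H, 150 to 235 CPM in CL and 118 to 253 CPM in LF calves at birth. At 48 h its lowest, median and highest levels were 241, 490 and 2367 CPM in H, 200.3, 284 and 473 CPM in CL, and 225, 774 and 3874 CPM in LF. The lowest calf at 48 h lay within the birth range in each breed. ENSBTAG00000031750 was the most abundant member, with a mean of 941 CPM. Its birth range of 232 to 528 CPM in LF and of 295 to 572 CPM in CL did not overlap with the 48 h ranges of 691 to 2484 CPM and 686 to 1091 CPM. The H calves overlapped for ENSBTAG00000031750, from 212 to 512 CPM at birth and from 426 to 2284 CPM at 48 h.

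At the other end, ENSBTAG00000025762 varied little in size. Its level in all 88 samples stayed between 160.6 and 425 CPM. In H calves its median went from 196 CPM at 0 h to 244 CPM at 48 h and 285 CPM at 168 h. In CL calves the same medians were 195, 231 and 275 CPM, and in LF calves 191, 266 and 279 CPM. None of its fitted changes in the 10 comparisons reached a 1.5-fold size, and the largest, from 0 to 48 h in LF calves, was 0.57 on the log2 scale (SE 0.19).

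The comparison of 48 h with 0 h asked how blood RNA changed from birth over the first days of feeding in each breed. A gene was called when the quasi-likelihood test of edgeR gave it an adjusted p under 0.05 and its fold change at least 1.5. All 100 members were tested in each comparison. In H calves 68 members were called higher, where 3.97% of all genes tested were, and none lower, where 2.97% were. In CL calves 48 were called higher (7.03% of all genes) and none lower (7.86%). In LF calves 91 were called higher (7.37% of all genes) and none lower (4.52%). The members' median log2 fold change was 1.05 in H, 0.61 in CL and 1.67 in LF calves, while the median over all genes tested was within 0.02 of 0 in each. These counts follow from a selection that used the same samples, and nothing is read from their excess over the background.

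Beside these counts stand the libraries with an R in the label, which include the H4 library at 48 h, the highest of its group for OAS2. Without the 3 such libraries in the H comparison, 36 members were called higher, against 2.70% of all genes, and their median log2 fold change was 0.70. In CL calves 25 members were called higher (7.30% of all genes) when all 88 samples shared 1 fit and so 1 estimate of spread.

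OAS2 had a log2 fold change from 0 to 48 h of 4.46 (SE 0.90) in H, 2.30 (SE 0.54) in CL and 5.35 (SE 1.20) in LF calves. Among the members, the largest rises were those of ENSBTAG00000009206 (3.80, SE 0.71) and ENSBTAG00000031214 (3.58, SE 0.68) in H. These fits did not pair the samples of a calf. With calf as a block the H values were 3.08 for OAS2, 2.94 for ENSBTAG00000009206 and 2.92 for ENSBTAG00000031214. That of ENSBTAG00000007450 was 3.05, against 3.32 without the block. The members' median with the block was 0.87 in H, 0.60 in CL and 1.43 in LF calves. In CL calves they were those of ENSBTAG00000007450 (2.85, SE 0.40) and ENSBTAG00000014857 (2.69, SE 0.39). In LF calves the largest was that of ENSBTAG00000031214 (5.55, SE 0.84). The most negative fitted change in CL calves was that of ENSBTAG00000005786 (-0.21, SE 0.11), which was not called. In CL calves ENSBTAG00000005786 was at 12.3 to 15.8 CPM at birth and at 9.70 to 15.2 CPM at 48 h, and it reached 68.7 CPM in an H calf and 64.1 CPM in an LF calf at that age. The plot of fitted changes shows the members of each comparison beside OAS2.

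**Figure D3:**
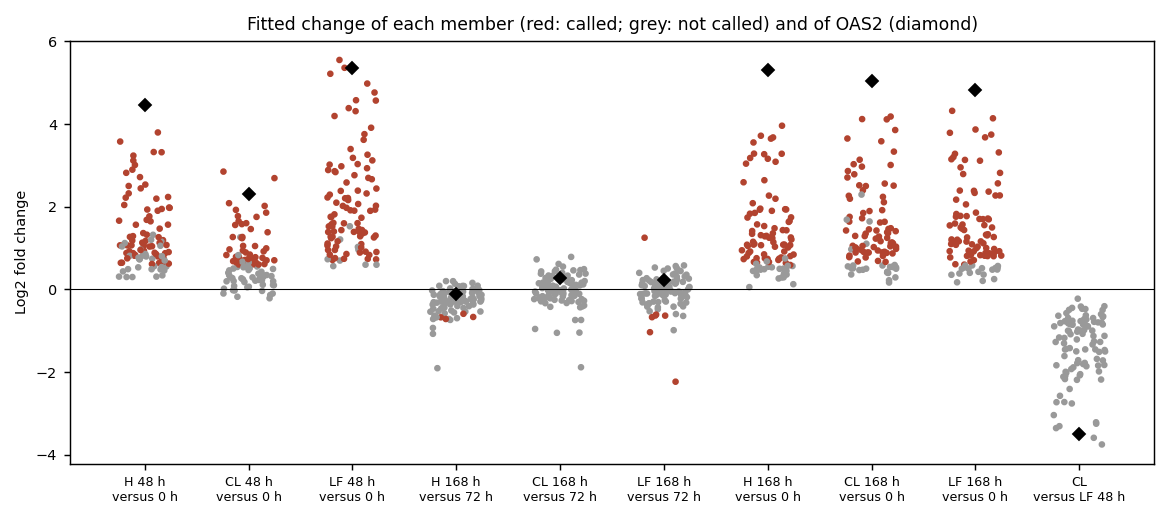
Fitted log2 fold change from edgeR of each of the 100 members (points, spread sideways at random for visibility) in the 10 comparisons, red where called and grey where not, with OAS2 as a black diamond. The points lie mostly above 0 at 48 h and 168 h against birth, around 0 at 168 h against 72 h, and below 0 for CL against LF at 48 h, where none is called.

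Counted calf by calf, 71 members were higher at 48 h than at birth in each of the 8 H calves, as were 8.55% of all genes past the level filter. In each of the 7 CL calves 68 members were higher (16.3% of all genes), and in each of the 7 LF calves 86 (9.80%). No member was lower at 48 h in every calf of a breed, where 5.03% (H), 14.4% (CL) and 13.8% (LF) of all genes were. The median over members was higher at 48 h in all 22 calves. OAS2 was higher too in all 22, by a median of 2.60 log2 units in H, 1.40 in CL and 2.93 in LF calves.

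The change between 48 and 72 h is given as a description with no model fitted, and calves of the same breed differed in direction. In CL calves the members' median was higher at 72 h in 6 of 7 calves, and the median member changed by 0.36 log2 units. In each CL calf 9 members were higher at 72 h, as were 5.02% of all genes. In LF calves the members' median was higher in 3 of 7 calves, and the median member changed by -0.43 log2 units. In H calves it was higher in 4 of 8, and the median member changed by 0.11 log2 units. OAS2 itself was higher at 72 h in 6 of 8 H calves, 6 of 7 CL calves and 3 of 7 LF calves. Its median change was 2.00 log2 units in H, 1.59 in CL and -0.28 in LF calves. Taking each member's highest group mean, 53 of the 100 were highest at 48 h in LF calves, 6 in H and 0 in CL. By contrast 47 were highest at 72 h in CL, 39 in H and 11 in LF calves. At 168 h the numbers were 53 in CL, 55 in H and 36 in LF calves. The lowest group mean was at 0 h for all 100 members in H and LF calves and for 95 in CL calves. These counts of group means have no share over all genes beside them, and nothing is read from them.

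From 72 to 168 h few members were called in any breed. In H calves 4 were called lower (5.81% of all genes tested) and none higher (3.36%). In CL calves edgeR called none higher (0% of all genes) or lower (0.0157%). Of the CL members 3 had an unadjusted p under 0.05 (23.8% of all genes), and DESeq2 called 1 lower (2.78% of all genes). In LF calves 1 was called higher (3.34%) and 6 lower (10.6%). The members' median log2 fold change was -0.22 in H, -0.01 in CL and -0.04 in LF calves, beside -0.04, 0.01 and 0.04 over all genes tested. Leaving out a calf changed these counts, and the share called over all genes changed with it. In H calves no member was called lower without H1 (3.08% of all genes), without H4 (3.40%) or without H8 (4.49%). Without H3 (5.49%), H6 (4.62%) or H7 (4.07%) 2 were called lower. In H calves 2 members were called lower with calf as a block, against 5.55% of all genes. In LF calves 3 were called lower without LF1 (9.57%), LF2 (9.13%), LF3 (11.3%) or LF4 (6.06%), and 2 without LF6 (6.19%). Without LF3, 4 were called higher (3.09%), and without LF2, LF4, LF5, LF6 or LF7 none was.

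ENSBTAG00000006801 was called lower at 168 h than at 72 h in both H and LF calves. In H calves its lowest, median and highest levels were 56.1, 174 and 203 CPM at 72 h and 72.9, 105.9 and 145 CPM at 168 h. In LF calves they were 90.98, 122 and 176 CPM and then 42.5, 99.7 and 124.4 CPM. The 2 ages overlapped in both breeds. The log2 fold change was -0.71 (SE 0.20) in H and -0.63 (SE 0.21) in LF calves, and in CL calves it was -0.41 (SE 0.24) and not called. In those CL calves ENSBTAG00000006801 had a median of 115.4 CPM at 72 h and 73.8 CPM at 168 h.

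ENSBTAG00000007450 parted from OAS2 late in the week in LF calves. In LF calves its lowest, median and highest levels were 4.30, 8.14 and 12.8 CPM at birth, 24.1, 208 and 447 CPM by 48 h and 37.4, 345 and 640 CPM by 72 h. By 168 h it was at 12.2, 61.8 and 169 CPM, a log2 fold change from 72 h of -2.23 (SE 0.56) that was called. In CL calves its median went from 3.93 CPM at birth to 24.95, 194 and 52.7 CPM at 48, 72 and 168 h. The CL change from 72 to 168 h, -1.88 (SE 0.51), was not called. OAS2 itself changed within CL calves by a median of -1.325 log2 units between these ages and was higher at 168 h in 3 of 7. In H calves the medians were 6.28, 74.8, 231 and 122 CPM in order of age. The r of ENSBTAG00000007450 with OAS2 was 0.28 over the 22 samples at 168 h, where ENSBTAG00000024851 (0.12) and ENSBTAG00000011880 (0.27) were lower still. Over all 88 samples, once group means were removed, it was 0.51, the lowest of the members. ENSBTAG00000014529 was the 1 member called higher at 168 h than at 72 h in LF calves, where its median was 43.5 CPM at 72 h and 92.7 CPM at 168 h with overlapping ranges. Its log2 fold change was 1.25 (SE 0.41), and it was not called with calf as a block.

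At 168 h most members were still above birth. In H calves 76 were called higher than at 0 h (7.85% of all genes) and none lower (12.8%). In CL calves 74 were called higher (7.11%) and none lower (8.35%). In LF calves 81 were called higher (6.49%) and none lower (8.33%). The members' median log2 fold change was 1.08, 1.13 and 1.16 in H, CL and LF calves, beside -0.02, 0.02 and 0.01 over all genes tested, and that of OAS2 was 5.31 (SE 0.34), 5.04 (SE 1.05) and 4.83 (SE 0.68). These 3 comparisons share their birth samples with those at 48 h. Calf by calf, 88 members were higher at 168 h than at birth in each H calf (28.1% of all genes) and also in each H calf other than H1 and H3 (32.7%), 61 in each CL calf (14.4%) and 89 in each LF calf (21.9%).

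The CL and LF calves, both suckled, were compared at 48 h. All 100 members had a higher mean log2(CPM + 1) in LF than in CL calves, as did 32.4% of all genes past the level filter, and the median difference between means was 0.83. EdgeR called none of the members higher in CL (0% of all genes tested) or lower in CL (0%). At an unadjusted p under 0.05 there were 95 members (22.7% of all genes). DESeq2 called 70 members lower in CL (2.51% of all genes), and edgeR called 76 lower when all 88 samples shared 1 fit (3.30%). Without calf LF5, which had the lowest OAS2 of the LF group at 48 h, edgeR called 77 lower (5.63%), and without any other single calf it called none. The fitted log2 difference of CL against LF was -3.49 (SE 1.11) for OAS2 and had a median of -1.19 over the members and 0.01 over all genes tested. The same 48 h samples also enter the comparisons with birth.

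Single calves of the groups overlapped for nearly every member. For 99 members the highest CL calf at 48 h was above the lowest LF calf. The single member without overlap, named after its values were seen, was ENSBTAG00000037800, against 0.0700% of all genes that placed every LF calf above every CL calf. Its levels at 48 h were 3.96, 25.2 and 37.1 CPM in CL calves and 41.8, 129.1 and 449 CPM in LF calves. At birth ENSBTAG00000037800 lay at 1.97 to 9.61 CPM in CL and 2.09 to 18.2 CPM in LF calves, and at 168 h at 1.63 to 236 CPM in CL and 19.1 to 90.1 CPM in LF, overlapping at both ages. Its fitted log2 difference of -3.25 (SE 0.63) at 48 h was not called.

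The breeds are set side by side here without a test. Shares over all genes are not given for these comparisons, so nothing is read from the counts of members. At 0 h LF means were above CL for 52 members, with a median difference of 0.00 log2 units, H means were above CL for 70, with a median of 0.19, and H means were above LF for 64, with a median of 0.14. At 48 h H means were above CL for 91 members (0.53) and above LF for 17 (-0.26). At 72 h LF was above CL for 81 members (0.08), H above CL for 79 (0.30) and H above LF for 70 (0.18). At 168 h LF was above CL for 96 members (0.22), H above CL for 87 (0.35) and H above LF for 73 (0.12). The members' median per calf at 168 h ran from 6.20 to 7.32 in H, from 5.40 to 7.72 in CL and from 6.17 to 7.19 in LF calves on the log2(CPM + 1) scale. The CL calves held both the lowest and the highest value.

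Calves differed in the age at which OAS2 was highest, and the members followed the calf. The highest OAS2 value came from the 48 h sample in 4 calves, the 72 h sample in 7 and the 168 h sample in 11. It was lowest at 0 h in 20 of the 22, the exceptions being H5, lowest at 72 h, and CL3, lowest at 168 h. In the median calf 78 of the 100 members were highest at the same age as OAS2, with a range of 33 to 97, while 25.3% of all genes past the filter were in the median calf. Over all 2200 pairs of a calf and a member, 72.9% shared the age of OAS2, against 30.6% of pairs over all genes. Only 0.591% of the members' pairs were highest at birth, against 24.9% over all genes. Without H1 and H3, 73.1% of the members' pairs shared the age of OAS2, with no share over all genes taken for the remaining calves. The selection over all samples favours such agreement, and these shares are a description.

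Single calves make this plain. In LF1 the OAS2 level by age was 17.1, 794, 253 and then 328 CPM, and 97 members were highest at 48 h. In CL7 it was at 5.11, 15.1, 432 and 139 CPM, and 97 members were highest at 72 h. In CL2 it was at 2.66, 3.07, 16.2 and 489 CPM, and 95 were highest at 168 h. The 3 calves thus held the same genes at their highest on 3 different days. H5 went up and down, with OAS2 at 5.35, 155, 4.55 and 149 CPM and 82 members highest at 48 h. The members' median in H5 followed, at 5.68, 6.86, 5.40 and 6.41 log2 units. Not every member did, since 5 were highest in H5 at 72 h, the age at which its OAS2 was lowest. That 72 h library also correlated at only 0.07 over genes with the 168 h library of H5, as deviations from the group means.

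In 11 calves at least 80 members shared the age of OAS2, and in 20 calves that age held the largest number of members. The exceptions were H8 and LF5. In H8 OAS2 was at 312 CPM at 72 h and 404 CPM at 168 h, and 51 members were highest at 72 h and 45 at 168 h. In LF5 OAS2 was at 237 CPM at 72 h and 162.6 CPM at 168 h, while 67 members were highest at 168 h and 33 at 72 h. H1 was also divided, with 34, 21 and 45 members highest at 48, 72 and 168 h, where OAS2 was at 152.9, 202 and 292 CPM. Of the 11 calves in which fewer than 80 members shared the age of OAS2, all but CL3 and LF5 had their highest OAS2 at 168 h, as the bar plot of peak ages shows.

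**Figure D4:**
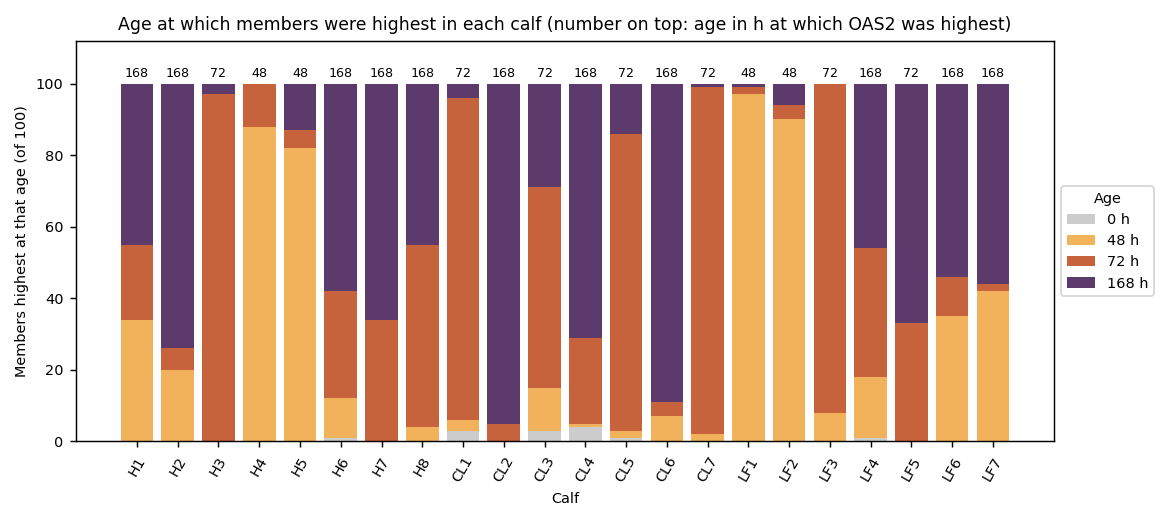
Number of the 100 members that were highest at each age (stacked bars, in colours by age in h) in each of the 22 calves, with the age at which OAS2 was highest printed above the bar. In LF1, CL7 and H3, 97 members shared the age of OAS2, and in LF5 33 did.

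The members also followed OAS2 among calves of the same breed and age. The values below come from the samples that selected the members, so they are a description. After subtraction of the mean of each of the 12 groups, r with OAS2 had a median of 0.77 over the members and ran from 0.51 to 0.92, where the median of all genes was 0.05. Within breeds the median r was 0.86 in H (32 samples), 0.82 in CL (28 samples) and 0.86 in LF (28 samples). Over all genes it was 0.22 in H, 0.02 in CL and 0.02 in LF calves. Samples of a calf at 4 ages enter together, so these are not independent points. Within single ages, over 22 calves each, the members' median r was 0.33 among birth samples. It was 0.85, 0.76 and 0.80 among those of 48, 72 and 168 h. Over all genes the medians were -0.08, -0.10, 0.02 and -0.15 in order of age. At birth 91 members had an r above 0, and OAS2 itself varied least there, with an SD of 0.75 log2 units against 1.93 to 2.21 at the later ages. The plot of r with and without group means shows that most members had a lower r once the means were removed.

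**Figure D5:**
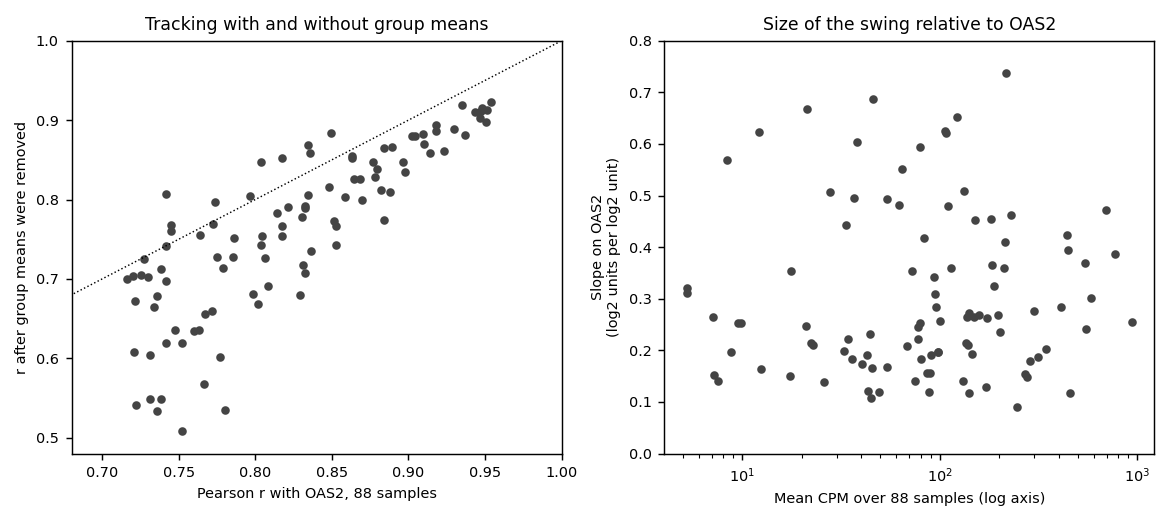
Left, Pearson r of each member with OAS2 over 88 samples (x) against r after group means were removed (y), with a dotted line of equal values. Right, mean CPM on a log axis (x) against the slope of log2(CPM + 1) on that of OAS2 (y). On the left most points lie under the line, and on the right steep and flat members occur at low and at high levels.

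The members moved with one another about as closely as with OAS2. Over the 4950 pairs of members the median r was 0.78, from 0.36 to 0.98, against a median of 0.11 over all pairs of genes past the filter. A single component held 77.0% of the variance of the 100 standardised members, and their median per sample correlated with OAS2 at r = 0.94. All of these share libraries, depth and the selection.

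Position in the count files, which the selection did not use, showed some members side by side. The rows of the files were taken as they stand, and no coordinates were used. In the order of all 24616 gene rows, 21 of the members and OAS2 stood next to another. They made 12 adjacent pairs that formed 3 runs of 3 and 6 runs of 2. Of the rows past the level filter that stood next to a member or OAS2, 18.4% were themselves members or OAS2. Among all rows past the filter the share was 1.01%. The closest pairs were ENSBTAG00000009206 with ENSBTAG00000031214 (r = 0.98 with each other), ENSBTAG00000007881 with ENSBTAG00000007883 (r = 0.98) and ENSBTAG00000034349 with ENSBTAG00000030932 (r = 0.97). ENSBTAG00000037527 stood 2 rows from OAS2, with 1 of the left-out identifiers, ENSBTAG00000039861, between them, and that gene had r = 0.97 with OAS2. Reads that fit more than 1 gene are not counted by STAR, and the counts used ignore strand, so neighbouring or overlapping genes and near-identical copies can share or lose reads, and their part in these correlations was not tested.

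ENSBTAG00000034349 and ENSBTAG00000030932, neighbours with r near 0.95 to OAS2, moved together at different levels. In LF calves ENSBTAG00000034349 was at 6.28, 13.5 and 19.4 CPM at birth and at 24.8, 47.7 and 347 CPM at 48 h. ENSBTAG00000030932 was at 12.7, 29.5 and 37.6 CPM at birth and at 41.7, 71.9 and 427 CPM at 48 h in the same calves. Neither overlapped with birth in LF calves, and both did in H and CL calves. The log2 fold change of ENSBTAG00000034349 from 0 to 48 h was 2.82 (SE 0.63) in H, 1.38 (SE 0.30) in CL and 3.26 (SE 0.62) in LF calves. That of ENSBTAG00000030932 was 2.24 (SE 0.55), 0.71 (SE 0.15) and 2.59 (SE 0.57). Both were called in each breed. The last member by r, ENSBTAG00000007970, moved less, with log2 fold changes of 0.31 (SE 0.19) in H and 0.08 (SE 0.10) in CL, neither called, and 0.76 (SE 0.23) in LF calves, called there but not with calf as a block. Its level over all samples was 23.7 to 104.3 CPM.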

How the data were processed

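RNA from whole blood of 22 calves at 4 ages was sequenced as 88 single-end libraries. The authors trimmed reads with cutadapt, mapped them to cattle build UMD3.1 by STAR and deposited raw counts per Ensembl gene; tool versions are not given in the sources used here. The unstranded count was used, since 50.6% and 49.8% of it fell on each strand, and the strand columns were not used. Reads assigned to no gene (30.6% to 73.9% of reads) stayed out of totals. CPM used the total without the 5 largest genes of each library, and a pseudocount of 1 on the log2 scale. Counts on genes ran from 10023822 to 39304404 per library, and a limit of 3 counts covers counting error only.

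Breed, age and calf came from the labels, and calves were followed by the tag number in the labels, which is not the RNA number. Fits across all genes used edgeR 4.0.16 in R 4.3.3 (TMM, filterByExpr, robust quasi-likelihood, Benjamini-Hochberg adjustment), with 2 groups per fit and no block. Alternatives were DESeq2 1.42.0, RLE scaling, no filter, calf as a block, all 88 samples in 1 fit, no fold threshold, and leaving out R libraries or each calf. Each SE was derived as the absolute log2 fold change divided by the square root of the F value of its test. Scripts were tested on simulated data. The pairing comes from the animals: deviations of the same calf correlated at a mean of 0.23 to 0.52 over the 9 comparisons of ages. Those of different calves correlated at -0.08 to -0.04. Single calves fell below 0, with a lowest same-calf r of -0.13 in CL for 168 h against 72 h. Against 0 h at 168 h the lowest was -0.19 in CL and -0.11 in LF calves.

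The members and lists were chosen with earlier results of these data known. Genes to be named were OAS2, the members with the highest and lowest r and the first genes outside, those with the largest and smallest changes at 48 h per breed, those with the lowest r after group means were removed, and genes beside OAS2; a few of each are printed. Members called at 168 h against 72 h, the abundant members, the flattest member and those named as such were added after their values were seen. Lists of interferon and blood cell marker genes by symbol were not applied, because no table used here pairs Ensembl cattle identifiers with symbols, and no sequence is shown for the same reason.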

Additional observations from a re-analysis of the deposited data

Results flagged for a closer look

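In 24 groups of values (OAS2 and the members' median in each of the 12 groups), 1 sample stood apart from its group by Dixon's test, where chance flags about 1 in 20 groups. OAS2 in calf H5 at 72 h, at 2.47 on the log2(CPM + 1) scale, was the lowest of the 8 H calves, and the next was at 6.30. The members' median in that library, 5.40, was also the lowest of the H calves at 72 h but did not pass that test. Over genes, the deviations of that library from its group mean correlated at 0.07 with those of the H5 library at 168 h. The latter correlated at 0.22 with the 72 h library of H2. Whether the identity of the calf or the library plays a part in the low value was not tested.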

How the results depend on the processing

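Of 83 alternatives other than leaving out each calf in turn, 73 gave a count within 1.5 times that reported. In this and the tallies below, 0 against a reported 0 was taken as within. The reported count was 0 for CL at 168 h against 72 h and for CL against LF at 48 h, so agreement there says little about stability. For the H calves at 48 h against 0 h the count of members called was 36 without the libraries with R in the label, against 68. For the CL calves it was 25 with all 88 samples in 1 fit, against 48. At 168 h against 72 h the H count of 4 became 2 with no low-count filter, the LF count of 7 became 4 with no low-count filter, and the CL count of 0 became 1 with DESeq2. With no low-count filter, 580 of all 19240 genes tested were called lower in H and 1338 of 19176 in LF calves. For CL against LF at 48 h, DESeq2 called 70 and all 88 samples in 1 fit called 76, against 0. The causes were not tested.

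With calf as a replicate block, the H count at 168 h against 72 h became 2, against 4, and the other 8 of 9 block fits gave a count within 1.5 times. Without H1 and H3, whose 168 h RNA numbers stand apart, a choice made after seeing the data, it was 0 with or without the block, and at 168 h against 0 h it was 71 without and 74 with the block, against 76. At 168 h against 72 h without H1 and H3, 296 of all 12545 genes tested were called lower, and 185 with the block. At 168 h against 0 h without H1 and H3, 848 of all 12626 genes tested were called higher, and 971 with the block. CL against LF at 48 h compares different calves and has no block.

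Leaving out each calf in turn gave 48 to 67 members called for H, 40 to 51 for CL and 76 to 93 for LF at 48 h against 0 h. It gave 71 to 80, 58 to 75 and 74 to 83 at 168 h against 0 h, and 0 to 5, 0 to 0 and 2 to 7 at 168 h against 72 h. For CL against LF it gave 0 to 77, with 77 only without LF5. The number of all genes called higher also changed, out of 12479 or more tested. At 48 h against 0 h it was 385 to 557 for H, 803 to 959 for CL and 697 to 994 for LF. At 168 h against 0 h it was 889 to 1109, 805 to 916 and 724 to 826. Of 80 such fits 69 gave a count of members within 1.5 times, with fits of 0 against a reported 0 among the 69.

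The membership kept 89 of the 100 genes with TMM scaling, 94 with Spearman's correlation, 93 with the 5 largest genes kept in the total, 93 with a mean of at least 1 CPM, 78 with group means removed, and 97 without the R libraries. Without H, CL or LF calves it kept 81, 84 and 93, and without the birth samples 81. Without calf H6, an alternative chosen after seeing the data, it kept 97. Alternatives for the interferon list were not run, because its symbols could not be matched to identifiers. Each member had at least 4 counts in every library, and the effect of depth was not tested.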
